A study of Mus musculus with 8 samples.

Results

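A set of 10 genes of the unfolded protein response and its chaperones was followed in aged fast muscle. They were taken by symbol from the deposited gene table and are the 3 stress sensors (*Eif2ak3*, *Ern1* and *Atf6*), the transcription factors below them (*Xbp1*, *Atf4* and *Ddit3*) and the endoplasmic reticulum (ER) proteins that the response raises (*Hspa5*, *Hsp90b1*, *Dnajb9* and *Herpud1*). These are 10 of the 16686 genes with counts, and 10 of 10 were among the 12542 genes that passed edgeR's filter on low counts. RNA was sequenced from the tibialis anterior (TA), a fast-twitch muscle of the lower leg, of 4 FVBN wild-type (WT) and 4 C2-/- male mice, labelled as 22 months old, with 1 library per mouse. C2-/- mice lack fMyBP-C, the fast isoform of myosin binding protein-C in the thick filament, which *Mybpc2* encodes. In these mice a Neo cassette between LoxP sites takes the place of exons 2 to 22, and no promoter or Cre limits the loss to muscle. The sources name no agent given to either group. A housing entry in the labels states a far younger age, which disagrees with the age label that all 8 libraries carry.

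The unfolded protein response acts when proteins in the ER fold poorly. PERK (*Eif2ak3*) slows translation and raises translation of the *Atf4* mRNA, IRE1 (*Ern1*) splices the *Xbp1* mRNA, and ATF6 is cut to release a transcription factor. ATF4, spliced XBP1 and cleaved ATF6 then raise genes for chaperones, for protein degradation and, under lasting stress, for the death factor CHOP (*Ddit3*). In muscle fibres the ER is largely the sarcoplasmic reticulum, the calcium store that drives contraction. Much of this signalling runs through phosphorylation, splicing and cleavage, and counts of reads per gene measure none of these steps, nor do they separate spliced from unspliced *Xbp1* mRNA.

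The promoters of 3 of the genes carried a known element of this response, and they are shown so that the elements can be set beside the values of these genes. Windows from 250 bases before to 50 bases after the start of transcription (RefSeq, GRCm38.p6) were matched for 9 of the 10 genes, *Atf6* being the exception. Both strands were searched for the ER stress element ERSE (CCAAT, any 9 bases, then CCACG), for ERSE-II (ATTGG, any 1 base, then CCACG), for the XBP1 element UPRE (TGACGTGG) and for the C/EBP-ATF element CARE (TGATGNAA, with N for any base). ERSE was in 0.119%, ERSE-II in 0.037%, UPRE in 0.676% and CARE in 3.97% of the 32851 windows of all genes. No match overlapped another in these genes. The 250 bases before the start follow, 5′ to 3′ along the strand of the gene, with the fixed letters of each match in capitals, for *Hspa5* (chr2:34771840-34772089, plus strand), *Hsp90b1* (chr10:86705445-86705694, minus strand) and *Herpud1* (chr8:94386179-94386428, plus strand).
Hspa5: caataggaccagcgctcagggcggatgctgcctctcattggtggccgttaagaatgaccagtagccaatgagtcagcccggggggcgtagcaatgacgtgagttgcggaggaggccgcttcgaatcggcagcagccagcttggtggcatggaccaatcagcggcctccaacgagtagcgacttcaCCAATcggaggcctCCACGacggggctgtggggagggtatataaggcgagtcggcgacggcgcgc
Hsp90b1: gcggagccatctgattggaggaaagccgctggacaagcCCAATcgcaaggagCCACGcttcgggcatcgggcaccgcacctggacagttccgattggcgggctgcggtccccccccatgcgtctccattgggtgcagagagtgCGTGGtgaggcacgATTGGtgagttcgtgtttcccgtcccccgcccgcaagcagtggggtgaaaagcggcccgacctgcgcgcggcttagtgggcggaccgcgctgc
Herpud1: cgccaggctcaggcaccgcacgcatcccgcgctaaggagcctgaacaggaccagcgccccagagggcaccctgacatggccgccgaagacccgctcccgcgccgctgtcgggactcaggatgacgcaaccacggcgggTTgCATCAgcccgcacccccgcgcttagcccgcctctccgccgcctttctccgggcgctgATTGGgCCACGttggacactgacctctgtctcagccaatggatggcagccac
*Hspa5* held 1 ERSE, between −65 and −47 from the start. *Hsp90b1* held 2, between −212 and −194 and, in the opposite orientation, between −107 and −89. *Herpud1* held ERSE-II between −52 and −42 and CARE, in the opposite orientation, between −112 and −105. In the windows of the other 6 genes none of these letters matched, which says nothing about other forms of the elements or about sites elsewhere.

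The libraries summed to between 25425981 and 29747684 counts, so that 3 counts, the smallest level taken as shown, corresponded to at most 0.118 CPM (reads of a gene scaled to the library total and a TMM factor), and the least counted member had 83 reads in its lowest mouse. *Mybpc2* was at 4964, 5450, 5101 and 7392 CPM in WT and at 4.35, 4.02, 38.4 and 3.85 CPM in C2-/-, in accord with the labels in all 8 mice, with C2-/- replicate 3 above the other 3 knockout mice. Across all tested genes the comparison of genotypes gave few calls: 0.0319% of genes had an adjusted p under 0.05 (edgeR's quasi-likelihood test, adjusted by Benjamini-Hochberg over all of them), 5.29% an unadjusted p under 0.05, and in 3.38% the 4 mice of one genotype lay entirely above or below the 4 of the other. The tissue label fitted its markers, since 8 fast fibre genes summed to between 86000 and 132600 CPM and 6 slow fibre genes to between 11.2 and 49.9 CPM. WT replicate 2 stood apart from the other 7 mice. The median chi-square per gene between its counts and those of each other mouse was 124, against 41.5 to 71.9 for the others, and it held the highest CPM of the 8 mice in 27.5% of tested genes, against 6.57% to 12.6% in each other mouse. Most results that rest on this mouse are therefore given with and without it. In whole muscle, fewer cells of a type and less RNA per cell cannot be told apart.

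None of the 10 genes differed between C2-/- and WT beyond the spread between mice. By edgeR's quasi-likelihood test 0 of 10 had an adjusted p under 0.05 (background 0.0319%), 0 of 10 an unadjusted p under 0.05 (background 3.38% higher and 1.91% lower in C2-/-). The genotypes overlapped in 10 of 10, whereas all C2-/- mice were above the WT mice in 2.03% of tested genes and below them in 1.36%. By limma-voom and by DESeq2 the number called was also 0 of 10 at either threshold. The log2 fold change was below 0 for 8 of 10 genes, and so it was for 54.2% of all tested genes. The median over the 10 genes was −0.14, beside −0.02 over all tested genes. Without WT replicate 2, 5 of 10 lay below 0 and the median was 0.02, beside −0.002 over all tested genes, and 0 of 10 had an unadjusted p under 0.05 (background 5.89%). A p above the threshold does not show that the levels were equal, and only for *Atf6*, *Hsp90b1* and *Herpud1* did the 95% interval stay within 1.5-fold in either direction, as it did for 53.0% of all tested genes.

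**Figure D1:**
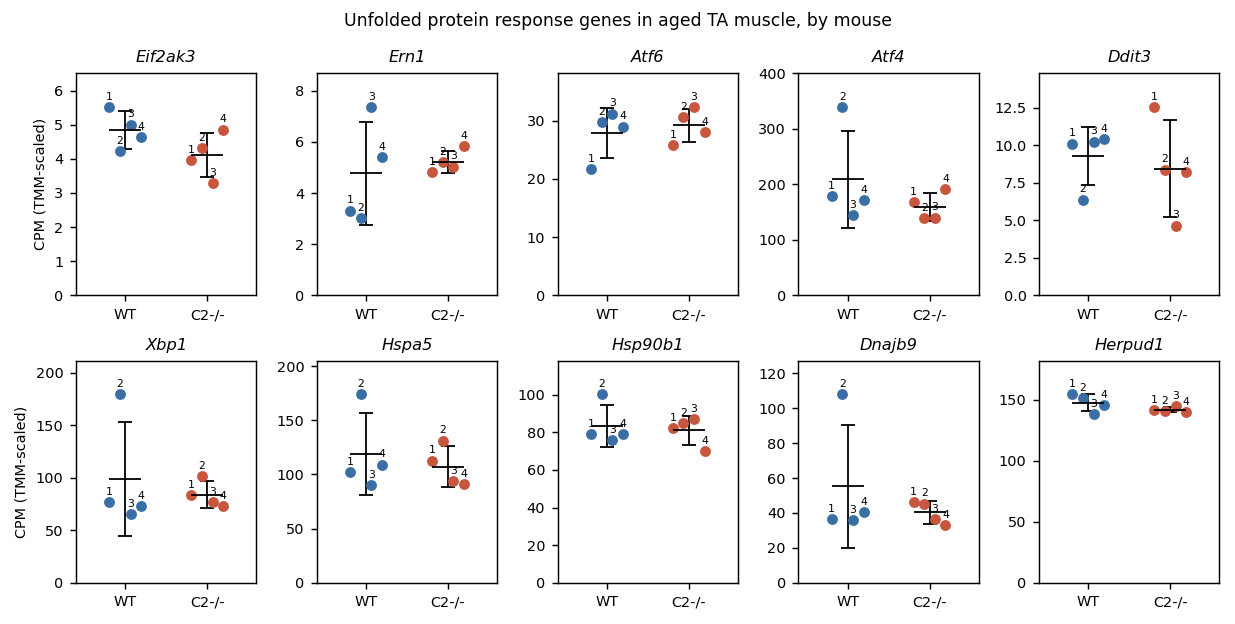
CPM of each of the 10 genes (vertical axis, from 0) in 4 WT and 4 C2-/- mice, with the replicate number above each point, the mean as a long bar and the SD as whiskers. The points of the genotypes overlap in every panel, and WT replicate 2 is the highest mouse for *Atf4*, *Xbp1*, *Hspa5*, *Hsp90b1* and *Dnajb9*.

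The sensors had the lowest levels of the 10 genes, and their log2 fold changes lay between −0.24 and 0.13. *Eif2ak3*, the ER membrane kinase PERK (chr6:70844484-70905241, plus strand), was at 5.51, 4.23, 5.004 and 4.63 CPM in WT replicates 1 to 4 and at 3.97, 4.31, 3.30 and 4.85 CPM in C2-/- replicates 1 to 4. The 2 lowest values were C2-/- mice and the 2 highest WT mice, with the others mixed between them. Its log2 fold change was −0.24 (SE 0.17, 95% interval −0.62 to 0.14, edgeR adjusted p = 0.968), and it was −0.29 without WT replicate 2. About 8.05% of its exon bases lie antisense to *Gm43292*, and the sources used here do not state whether counting used the strand.

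*Ern1*, which encodes the kinase and RNase IRE1 (chr11:106397620-106487796, minus strand), was at 3.32, 3.03, 7.36 and 5.39 CPM in WT and at 4.81, 5.21, 5.04 and 5.82 CPM in C2-/-. The 4 WT mice fell on both sides of the C2-/- mice, with 2 below all of them and 1 above. The SD was 2.02 CPM in WT and 0.436 CPM in C2-/-, and the log2 fold change was 0.13 (SE 0.27, 95% interval −0.46 to 0.72, edgeR adjusted p = 0.987). *Atf6*, the sensor that is itself a transcription factor precursor (chr1:170704457-170868585, minus strand), was at 21.7, 29.8, 31.2 and 28.96 CPM in WT and at 25.8, 30.6, 32.3 and 28.1 CPM in C2-/-. WT replicate 1 was the lowest of all, and the other 3 WT mice lay within the range of the C2-/- mice. Its log2 fold change was 0.06 (SE 0.14, 95% interval −0.24 to 0.37, edgeR adjusted p = 0.987).

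Among the transcription factors, *Atf4*, the translationally controlled effector of PERK (chr15:80255184-80257545, plus strand), was at 179, 339, 145 and 172 CPM in WT and at 168, 139, 140.2 and 192 CPM in C2-/-. WT replicate 2 was 2.09 times the mean of the other 7 mice, which lay between 139 and 192 CPM without separating by genotype. The log2 fold change of *Atf4* was −0.39 (SE 0.25, 95% interval −0.94 to 0.16, edgeR adjusted p = 0.968, unadjusted p = 0.148), and −0.04 (SE 0.14) without that mouse. *Ddit3*, the gene of CHOP (chr10:127290793-127296291, plus strand), was at 10.1, 6.38, 10.2 and 10.4 CPM in WT and at 12.5, 8.37, 4.65 and 8.22 CPM in C2-/-. WT replicates 1, 3 and 4 were close together, WT replicate 2 was below them, and the C2-/- mice included both the highest and the lowest value of all. Its log2 fold change was −0.14 (SE 0.27, 95% interval −0.75 to 0.47, edgeR adjusted p = 0.987), and −0.28 (SE 0.26) without WT replicate 2. Of its exon bases, 3.97% lie antisense to *Mars*. The mouse with the most *Atf4* was thus the second lowest for *Ddit3*, and its *Ddit3* stood at 1.88 per 100 CPM of *Atf4*, against 3.31 to 7.47 in the other 7 mice.

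*Xbp1*, whose mRNA IRE1 splices (chr11:5520641-5525993, plus strand), was at 76.9, 179, 65.1 and 72.6 CPM in WT and at 83.2, 101.7, 76.6 and 73.0 CPM in C2-/-. WT replicate 2 was 2.28 times the mean of the other 7 mice, and C2-/- replicate 2 came next. C2-/- differed from WT by −0.24 on the log2 scale (SE 0.30, 95% interval −0.90 to 0.43, edgeR adjusted p = 0.976). Without WT replicate 2 it was 0.23 (SE 0.13, 95% interval −0.06 to 0.52, unadjusted p = 0.110, adjusted p = 0.948 by edgeR), so its sign rested on that mouse.

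The chaperone genes were, like *Xbp1*, highest in WT replicate 2, and none separated the genotypes. *Hspa5*, the gene of the main ER chaperone BiP (chr2:34772090-34776529, plus strand), was at 102, 174, 90.0 and 109 CPM in WT and at 113, 131, 93.7 and 91.1 CPM in C2-/-. The highest mouse of each genotype was its replicate 2, and WT replicate 2 was 1.67 times the mean of the other 7. The log2 fold change of *Hspa5* was −0.15 (SE 0.21, 95% interval −0.61 to 0.32, edgeR adjusted p = 0.982), and 0.10 (SE 0.14) without that mouse.

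*Dnajb9*, which encodes the BiP co-chaperone ERdj4 (chr12:44205897-44210068, minus strand), was at 36.3, 108, 36.0 and 40.7 CPM in WT and at 46.0, 45.3, 36.4 and 33.3 CPM in C2-/-. This gene had the widest spread of the 10, with the highest mouse 3.24 times the lowest, and WT replicate 2 was 2.76 times the mean of the other 7 mice, which stayed between 33.3 and 46.0 CPM. Its log2 fold change was the lowest of the 10 at −0.46 (SE 0.34, 95% interval −1.21 to 0.30, edgeR adjusted p = 0.968), and it was 0.10 (SE 0.14) without that mouse. *Hsp90b1*, the gene of the ER form of HSP90, GRP94 (chr10:86690841-86705444, minus strand), was at 79.2, 100.2, 75.7 and 79.2 CPM in WT and at 82.1, 84.9, 87.0 and 70.2 CPM in C2-/-. Leaving aside WT replicate 2, at 1.26 times the mean of the others, the WT mice lay inside the range of the C2-/- mice. On the log2 scale C2-/- differed from WT by −0.04 (SE 0.13, 95% interval −0.32 to 0.23, edgeR adjusted p = 0.989). Of the exon bases of *Hsp90b1*, 10.3% lie antisense to *1810014B01Rik*. On the same strand, 3.3% are shared with *Gm25745* and 2.08% with *Gm15344*.

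*Herpud1*, an ER membrane protein of the degradation machinery (chr8:94386429-94395371, plus strand), was at 154.5, 152, 138 and 146 CPM in WT and at 141.5, 141, 145 and 140.3 CPM in C2-/-. All 8 mice, WT replicate 2 included, lay close together, the highest at 1.12 times the lowest. The fitted variation between mice of *Herpud1* (biological coefficient of variation 0.132) was exceeded by all but 0.359% of tested genes. Between the genotypes the log2 fold change was −0.06 (SE 0.092, 95% interval −0.26 to 0.15, edgeR adjusted p = 0.983), an interval from 0.835-fold to 1.11-fold. *Herpud1*, with ERSE-II and CARE in the sequence printed above, was thus the steadiest of the 10. *Hspa5* and *Hsp90b1*, with ERSE, were at 1.93 and 1.43 from lowest to highest mouse. Genes whose windows held no match ran from 1.67 for *Eif2ak3* to 3.24 for *Dnajb9*. A link between the elements and the spread was not tested.

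**Figure D2:**
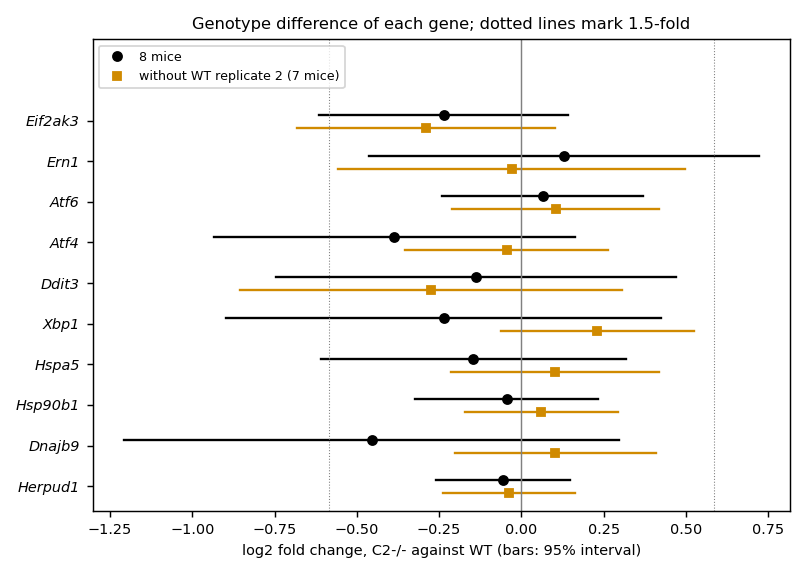
log2 fold change of C2-/- against WT for each of the 10 genes with its 95% interval, from all 8 mice (circles) and from the 7 mice without WT replicate 2 (squares), with dotted lines at 1.5-fold. Every interval crosses 0, and *Xbp1*, *Hspa5*, *Hsp90b1* and *Dnajb9* move from below 0 to above it, while *Ern1* moves the other way.

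The rank of the levels, which can be compared between genes only per transcript length, was read from the TPM values of the authors. *Atf4* was the highest with a mean of 199 TPM over the 8 mice, followed by *Herpud1* at 144 TPM, *Hspa5* at 82.1, *Xbp1* at 74.9, *Hsp90b1* at 55.3 and *Dnajb9* at 47.3 TPM. *Ddit3* was at 19.8 TPM, and the sensors were the lowest, with *Atf6* at 7.13, *Ern1* at 2.35 and *Eif2ak3* at 2.16 TPM. The ranges of neighbours overlapped for *Hspa5* and *Xbp1* (the first higher in 7 of 8 mice), for *Xbp1* and *Hsp90b1* (8 of 8), for *Hsp90b1* and *Dnajb9* (7 of 8) and for *Ern1* and *Eif2ak3* (6 of 8). The other neighbours did not overlap. *Xbp1* ranged from 58.4 to 134 TPM and *Dnajb9* from 35.3 to 97.6 TPM.

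WT replicate 2 held the highest CPM for 5 of the 10 genes, beside 27.5% of all tested genes, and the lowest for *Ern1*, beside 24.5%. It was thus high for *Atf4*, *Xbp1* and the chaperone genes *Hspa5*, *Hsp90b1* and *Dnajb9*, and low for *Ern1* and *Ddit3*, at 0.574 and 0.693 times the mean of the other 7 mice. For *Atf6*, *Eif2ak3* and *Herpud1* it was at 1.05, 0.938 and 1.05 times that mean. The blood markers summed to 6294 CPM in this mouse and to between 483 and 5886 CPM in the others, the immediate early genes to 983 against 296 to 1962 CPM, and the fibroblast markers to 298 against 321 to 658 CPM. Within the immediate early genes, *Fos* was at 70.9 CPM in WT replicate 2, 245 in WT replicate 4 and 123 in C2-/- replicate 2. In the other mice *Fos* lay between 0.901 and 7.81 CPM. *Fosb*, *Egr1*, *Junb*, *Ier2* and *Btg2* were likewise highest in WT replicate 2, WT replicate 4 and C2-/- replicate 2. Only *Nr4a1*, at 361.5 CPM in WT replicate 2 and 483 in WT replicate 3, did not split in this way. The part of these differences in the levels of WT replicate 2 was not tested.

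**Figure D3:**
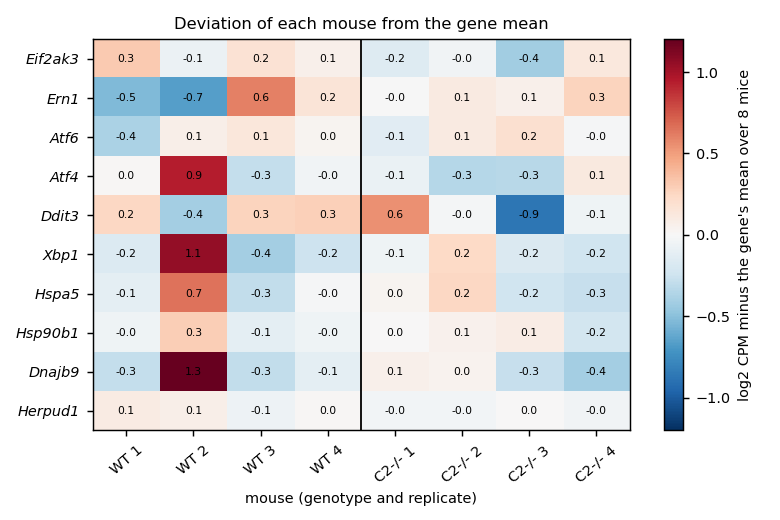
Deviation of each mouse (columns, WT to the left of the line) from the mean log2 CPM of each of the 10 genes (rows), with the value printed in each cell and red above the mean. WT replicate 2 is 1.29 above the mean for *Dnajb9*, 1.05 for *Xbp1* and 0.94 for *Atf4*, and 0.41 below it for *Ddit3*.

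Within the genotypes, the genes of the XBP1 and chaperone group varied together from mouse to mouse. Over the 8 mice, with log2 CPM centred within genotype, Pearson's r was 0.954 between *Xbp1* and *Hspa5*, 0.971 between *Xbp1* and *Dnajb9*, and 0.941 between *Hspa5* and *Dnajb9*. Without WT replicate 2 these were 0.932, 0.721 and 0.890 over 7 mice. *Hspa5* and *Hsp90b1* gave 0.826 and, without that mouse, 0.509. *Xbp1* and *Atf4* gave 0.807 over the 8 mice but −0.26 without WT replicate 2, so the likeness of these transcription factors rested on that library. *Ern1* and *Herpud1* went in opposite directions, with −0.93 over 8 mice and −0.95 over 7, although the whole range of *Herpud1* was small. These correlations describe the libraries and share their depth and scaling, and they were picked from all 45 pairs.

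Among 6917 tested genes with a mean of at least 10 CPM, those most like *Hspa5* by the same measure over 8 mice were *Clk4* (r = 0.991), *Terf2* (0.982), *H13* (0.978), *Psmd14* (0.974) and *Prpsap1* (0.970). *Clk4*, a kinase of splicing factors, was at 29.1 CPM in WT replicate 2 and between 13.9 and 21.3 CPM in the others. Without WT replicate 2, r lay between 0.903 and 0.981 for these genes. They were picked as the highest of 6917 over the same mice, so high values are partly due to that choice.

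The wider pathway was described with 103 further genes in 5 lists, of which 97 were tested, and none of these passed the adjusted threshold either. By edgeR's quasi-likelihood test 0 of 97 had an adjusted p under 0.05, and 5 of 97 (5.155%) had an unadjusted p under 0.05, beside 5.29% of all tested genes, and at the adjusted threshold limma-voom also gave 0 of 97 and DESeq2 0 of the 96 for which it returned a p. All 5 were higher in C2-/- (background 3.38% in that direction). The median log2 fold change over the 97 genes was −0.02, the same as over all tested genes at this precision. In 3 of the 97, *Psat1*, *Pdia4* and *Uggt1*, the C2-/- mice lay entirely above the WT mice, beside 2.03% of all tested genes. Named here are the 3 genes of each list with the smallest p.

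**Figure D4:**
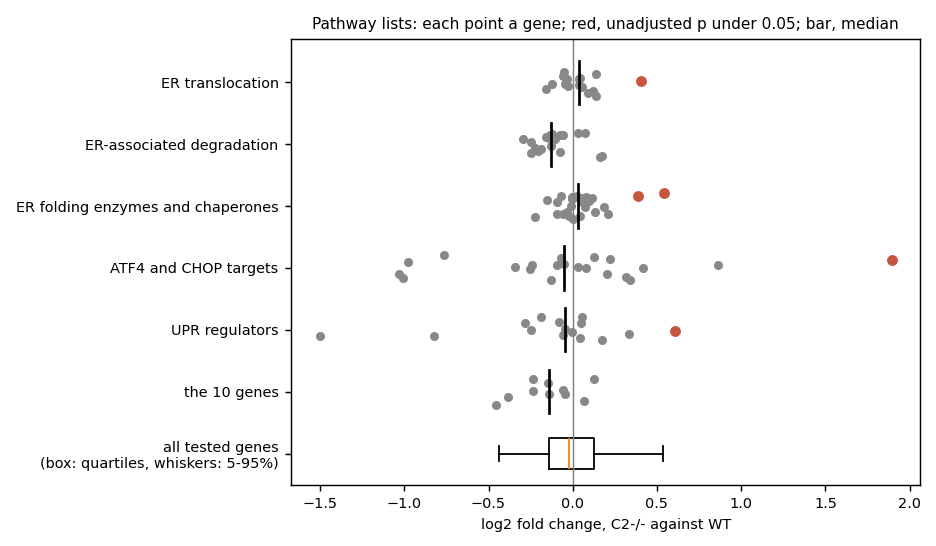
log2 fold change of C2-/- against WT for each tested gene of the 5 pathway lists and for the 10 genes, with the list median as a bar, genes with an unadjusted p under 0.05 in red, and all tested genes as a box of quartiles with whiskers at the 5th and 95th percentiles. The medians lie between −0.14 for the 10 genes and 0.04 for ER translocation.

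Of 15 tested regulators of the response, 1 had an unadjusted p under 0.05 (background 5.29%, median log2 fold change −0.04). This was *Creb3l1*, an ER-bound transcription factor of secretory cells, at 6.59, 3.43, 7.54 and 4.13 CPM in WT and 8.93, 7.55, 6.56 and 9.98 CPM in C2-/-. The groups overlapped, with a log2 fold change of 0.61 (SE 0.25, edgeR adjusted p = 0.918). *Creb3l1* was lowest in WT replicate 2, without which it was at 0.45 (unadjusted p = 0.0732 by edgeR). In that fit 0 of 15 regulators were under 0.05, beside 5.89% of all tested genes. The unadjusted p of *Creb3l1* by edgeR was also over 0.05 without WT replicate 4 or C2-/- replicates 1 or 4. *Cebpb* and *Cebpg*, which encode C/EBP partners of ATF4, had log2 fold changes of −0.82 (SE 0.41) and −0.25 (SE 0.12), and *Cebpb* was at 282 CPM in WT replicate 2 against 45.9 to 126 CPM in the others. Without that mouse they were at −0.32 (SE 0.30) and −0.22 (SE 0.13).

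Of 21 tested targets of ATF4 and CHOP, 1 had an unadjusted p under 0.05 (background 5.29%). Their median was −0.05, and 0.14 without WT replicate 2. *Psat1*, an enzyme of serine synthesis, was at 0.231, 0.693, 0.486 and 0.688 CPM in WT and at 5.07, 0.893, 0.958 and 0.971 CPM in C2-/-. C2-/- replicate 1 was far above every other mouse, and the other 3 C2-/- mice were just above the WT mice. Fitted to all mice, the log2 fold change was 1.89 (SE 0.65, edgeR adjusted p = 0.781), and 0.84 without C2-/- replicate 1 (unadjusted p = 0.0682). *Ppp1r15a*, which encodes GADD34, the phosphatase subunit that restores translation, was at 34.6, 174, 38.8 and 67.6 CPM in WT and at 37.9, 53.4, 32.7 and 35.4 CPM in C2-/-. WT replicate 2 was again the highest mouse, at 4.05 times the mean of the other 7. Its log2 fold change was −0.98 (SE 0.46, edgeR adjusted p = 0.948), and −0.23 without that mouse. *Chac1*, a glutathione-degrading enzyme, had a log2 fold change of −0.77 (SE 0.43), and of −0.51 (SE 0.43) without that mouse.

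Of 26 tested folding enzymes and chaperones of the ER, 2 had an unadjusted p under 0.05 (background 5.29%, median 0.03). Without WT replicate 2 it was 3 (background 5.89%, median 0.15). *Pdia4*, a protein disulfide isomerase, was at 6.09, 5.40, 5.38 and 5.36 CPM in WT and at 6.89, 7.70, 6.78 and 7.70 CPM in C2-/-. The groups were apart, with a log2 fold change of 0.39 (SE 0.13, edgeR adjusted p = 0.766, between 0.520 and 0.9996 over all settings tried). *Uggt1*, the enzyme that re-glucosylates misfolded glycoproteins for another round of folding, was at 26.4, 37.2, 47.6 and 47.5 CPM in WT and at 50.9, 65.4, 66.2 and 48.6 CPM in C2-/-. All C2-/- mice were above the WT mice, by a log2 fold change of 0.54 (SE 0.20, edgeR adjusted p = 0.848), with an unadjusted p over 0.05 without C2-/- replicate 2 (0.0517) or 3 (0.0568). *Cnpy2* was at 0.19 (SE 0.13), and at 0.30 (SE 0.11, edgeR unadjusted p = 0.0273) without WT replicate 2. Fibroblast markers, a cell type rich in ER, were also higher in C2-/-. They summed to 298 to 436 CPM in WT and to 479.5 to 658 CPM in C2-/-. By edgeR 4 of 6 had an unadjusted p under 0.05, higher in C2-/-, beside 3.38% of all tested genes in that direction. At an adjusted p under 0.05 it was 0 of 6 (background 0.0319%). For plasma cells, also rich in ER, the 7 markers summed to 3.55 to 4.45 CPM in WT and 3.80 to 7.70 CPM in C2-/-. Among the 4 tested, 1 had an unadjusted p under 0.05 by edgeR, higher in C2-/- (background 3.38% in that direction). Of the 7, *Mzb1*, *Tnfrsf17*, *Pou2af1* and *Derl3* stayed under 1 CPM in all 8 mice, while *Sdc1*, *Cd79a* and *Jchain* reached 3.64, 2.57 and 2.18 CPM. The part of these cells in the values of *Pdia4*, *Uggt1* and *Creb3l1* was not tested.

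Of 19 tested genes of ER-associated degradation, 0 had an unadjusted p under 0.05 (background 5.29%, median −0.13). Of these 19 genes, 15 lay below 0, beside 54.2% of all tested genes. The 3 with the smallest p were *Faf2*, *Ufd1* and *Selenok*, with log2 fold changes of −0.19 (SE 0.14), −0.25 (SE 0.19) and −0.16 (SE 0.12). Without WT replicate 2 these were −0.097, −0.019 and −0.099, and the median of the list was 0.02. Of 16 tested genes of translocation into the ER, 1 had an unadjusted p under 0.05 (background 5.29%, median 0.04). Without WT replicate 2 it was 0 (background 5.89%, median 0.07). *Srprb*, a subunit of the receptor for the signal recognition particle, was at 17.5, 16.6, 16.8 and 17.1 CPM in WT and at 15.9, 27.1, 20.2 and 26.7 CPM in C2-/-. The 4 WT mice lay close together and C2-/- replicate 1 lay below them, with a log2 fold change of 0.40 (SE 0.17, edgeR adjusted p = 0.918). Its unadjusted p by edgeR stayed under 0.05 only without C2-/- replicate 1 or 3, and reached 0.114 without C2-/- replicate 2. *Sec62* and *Spcs2* were at −0.16 (SE 0.18) and −0.12 (SE 0.14), and at 0.051 and 0.0045 without WT replicate 2.

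WT replicate 2 stood out in the wider pathway too. It was the highest of the 8 mice for 53 of the 97 genes (54.6%, beside 27.5% of all tested genes), for 14 of 19 genes of ER-associated degradation, 14 of 21 targets of ATF4 and CHOP, 13 of 26 folding genes and 9 of 16 translocation genes, but for 3 of 15 regulators. No other mouse was the highest for more than 10% of the 97 genes. Without it, 4 of 97 genes had an unadjusted p under 0.05 by edgeR, beside 5.89% of all tested genes. The median log2 fold change of the 97 genes was then 0.05, beside −0.002 over all tested genes.

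**Figure D5:**
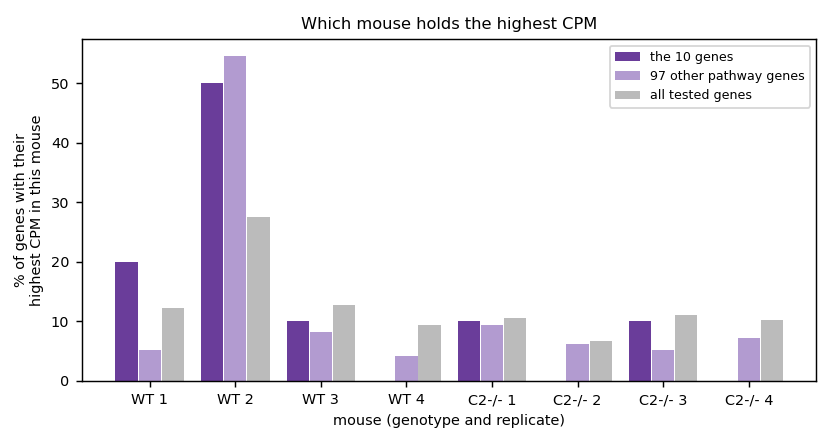
Share of genes (vertical axis, percent) whose highest CPM fell in each of the 8 mice, for the 10 genes, the 97 other pathway genes and all 12542 tested genes. WT replicate 2 is the tallest column for all 3, with 5 of the 10 genes, 54.6% of the pathway genes and 27.5% of the tested genes.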

How the data were processed

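RNA of 8 mice was enriched for mRNA with oligo(dT) beads and sequenced as DNA nanoballs. Per the labels and the methods, reads were aligned to GRCm38.p6 with HISAT and counted with featureCounts, and the labels also list Bowtie2. Whether counting used the strand is not given in the sources used here. The authors deposited expected counts per gene, made from the aligned reads and not normalized, of which between 5.5% and 6.53% per mouse were not whole and which were rounded, and TPM values, used only to rank levels. The deposited FPKM values, group averages and DESeq2 comparison (fold changes, p-values and q-values), made by the authors, were not used.

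The 10 genes, the 5 pathway lists and the marker lists were chosen with earlier results of these data known. All 12542 genes that passed edgeR's default filter were fitted with edgeR 4.0.16 (TMM factors between 0.929 and 1.03, quasi-likelihood test) in R 4.3.3 with Benjamini-Hochberg adjustment over all of them. CPM are scaled by the TMM factors, SDs are over 4 mice, and log2 CPM use a prior count of 2. The alternatives were RLE factors, total counts alone, no filter, at least 10 counts in each mouse, limma-voom 3.58.1, DESeq2 1.42.0, a block for the replicate number, and fits without each mouse in turn. Precision is limited by 4 mice per genotype, and the level of 3 counts covers counting error only. Every library was counted as its own mouse, as labelled. The closest libraries, WT replicate 1 and C2-/- replicate 1, differed by a chi-square of 27.4 per gene. Within a genotype the closest were at 57.2 in WT and 30.3 in C2-/-. These values were not scaled for library depth, so they cannot by themselves show that the animals were separate.

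Named genes are the 10 genes, the 3 tested genes with the smallest p of each pathway list, and the 5 genes most like *Hspa5* by Pearson's r. *Mybpc2* checks the genotype. The named plasma cell markers, the named immediate early genes and *Rbm39*, *Calr*, *Canx* and *Pdia6* were chosen after their values were seen. Coordinates are those of RefSeq for GRCm38.p6, since the deposited intervals of 6 of the 10 genes differ from them. With blastn 2.17.0, no near-identical copy at another locus was found. Exons of 4 of the 10 genes share bases with another annotated gene (GENCODE), for *Dnajb9* 0.55% with *Mir5627*.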

Additional observations from a re-analysis of the deposited data

Results flagged for a closer look

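A value was singled out where, among the 4 mice of a genotype, the highest or lowest lay so far from the next that the gap exceeded Dixon's 95% critical value. Chance singles out about 1 group in 20. Of the 20 groups of the 10 genes, 4 met this, and in all 4 the mouse was WT replicate 2. It was high for *Xbp1* (179 CPM), *Hsp90b1* (100.2 CPM) and *Dnajb9* (108 CPM) and low, compared with the other WT mice, for *Ddit3* (6.38 CPM). Over all tested genes this mouse was singled out as high in 3.88% and as low in 0.997%.

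Among the 15 named pathway genes, the same mouse was singled out for *Cebpb*, at 282 CPM. The others were *Psat1* in C2-/- replicate 1 at 5.07 CPM, *Pdia4* in WT replicate 1 at 6.09 CPM, the highest of the WT mice yet below every C2-/- mouse, and *Selenok* in C2-/- replicate 4, low at 28.1 CPM. In all, 8 of 50 groups were singled out, beside 7.42% of WT groups and 5.82% of C2-/- groups over all tested genes.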

How the results depend on the processing

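Over 15 alternative settings, 139 of 150 log2 fold changes of the 10 genes kept their sign and none passed the threshold, with 0 of 10 genes under an adjusted or unadjusted p of 0.05 in each setting. The smallest unadjusted p was 0.0559 and the smallest adjusted p 0.649. The sign turned in 11 cases. With total counts alone it did for *Hsp90b1* (0.015) and *Herpud1* (0.0019). Leaving out each mouse moved *Xbp1* between −0.38 and 0.23, *Hspa5* between −0.25 and 0.10, *Dnajb9* between −0.61 and 0.10, *Hsp90b1* between −0.081 and 0.060, *Ern1* between −0.030 and 0.42, *Atf6* between −0.039 and 0.13 and *Ddit3* between −0.39 and 0.063. The sign turned without WT replicate 2 for *Xbp1*, *Hspa5*, *Dnajb9*, *Hsp90b1* and *Ern1*, without WT replicate 1 for *Ern1* (−0.011) and *Atf6*, without C2-/- replicate 3 for *Ddit3*, and without C2-/- replicate 4 for *Hsp90b1* (0.018). The median of the 10 genes moved between −0.19 and 0.02. The same fits also moved the number of other pathway genes with an unadjusted p under 0.05 by edgeR. From 5 it went as low as 3 (without C2-/- replicate 1 or 4) and as high as 8 (without WT replicate 3). Over all tested genes the number moved in the same directions, from 663 of 12542. It was 530 of 12662 without C2-/- replicate 1, 506 of 12664 without C2-/- replicate 4 and 983 of 12682 without WT replicate 3. The cause was not tested. Both genotypes carry replicate numbers 1 to 4, but same-numbered mice are different animals. Their deviations gave r = 0.267 for replicate 1, the highest of any WT and C2-/- pair. For replicates 2 to 4 they did not go together (0.042, −0.051 and 0.021). Pairs with unlike numbers lay between −0.225 and 0.202. With the replicate block the median of the 10 genes was −0.11 and 0 of 10 genes were called. In that fit 6 other pathway genes had an unadjusted p under 0.05, beside 660 of all 12542 tested genes. Over all tested genes, edgeR gave 4 genes with an adjusted p under 0.05, DESeq2 39, and edgeR without WT replicate 2 gave 7. With 4 mice per genotype, intervals of 7 of the 10 genes reach past 1.5-fold, so differences of that size remain possible for these genes.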

Other observations

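The promoter elements allow a view of genes outside the pathway lists, a set that was put together after values had been seen. An ERSE or ERSE-II match was found for 49 genes, of which 24 were tested in this muscle: *Hspa5*, *Hsp90b1* and *Herpud1*, 7 genes of the pathway lists such as *Calr*, *Canx* and *Pdia6*, and 14 genes in none of them. Of these 24 genes, 19 lay below 0 and 5 above, beside 54.2% below 0 over all tested genes. Their median log2 fold change was −0.06 beside −0.02 over all tested genes. WT replicate 2 was the highest mouse for *Hspa5*, *Hsp90b1*, *Calr* and *Canx*, though not for *Herpud1* or *Pdia6*. The direction of these 24 genes without that mouse was not examined. By edgeR's quasi-likelihood test 1 of 24 had an unadjusted p under 0.05 (background 5.29%) and 0 of 24 an adjusted p under 0.05. The former was *Rbm39*, a splicing factor, at −0.39 (SE 0.16, adjusted p = 0.918). *Calr*, *Canx* and *Pdia6*, which encode the lectin chaperones calreticulin and calnexin and a disulfide isomerase, were at −0.01 (SE 0.14), −0.01 (SE 0.16) and 0.13 (SE 0.16).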
